A study of Arabidopsis thaliana with 18 samples.

Results

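The experiment asked whether Arabidopsis thaliana seedlings that carry mutations in the BONZAI copine genes answer abscisic acid (ABA) differently from wild type (WT) at the level of transcripts. The quantity examined is the interaction of genotype with ABA, the ABA response of the mutant minus the ABA response of WT. It was measured in 12 of the 18 libraries of the series, 3 each of bon123 with 100 µM ABA, bon123 mock, WT with 100 µM ABA and WT mock. Every plant was of the Col-0 accession, was grown on vertical plates and was 9 days old. The mutant, which the labels call bon123t and which is written here as bon123, is a triple mutant of BON1, BON2 and BON3 (the labels do not explain the final t). Treatment was on 1/2 MS medium, for 12 h according to the sample labels and 24 h according to the text of the series, so its length is uncertain. The labels do not say whether the 3 libraries of a group came from separate cultures, so p-values reflect only how far these samples spread, which may be technical.

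As background, ABA is the hormone of drought and seed dormancy. It is bound by receptors of the PYR/PYL family, which then block the clade A protein phosphatases (PP2C). Kinases of the SnRK2 family are thereby released and activate transcription factors such as ABI5 and the ABF proteins, which bind the ABA-responsive element (ABRE, core ACGTG) of many promoters. Among their targets are dehydrins and other late embryogenesis abundant (LEA) proteins, and the PP2C genes themselves, which close a feedback loop. Copines are proteins that bind phospholipids in a calcium-dependent way, and the BON proteins are known for restraining immunity that runs through nucleotide-binding leucine-rich repeat (NLR) receptors.

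Levels are scaled TPM, transcript abundance in TPM (a unit in which the values of a library share a fixed total) divided by a scaling factor of each library. Differences are on the scale of log2(scaled TPM + 1), with their standard error (SE, n = 3 libraries per group), and understate the change of weakly expressed genes. A gene was called at an adjusted p under 0.05 (limma, Benjamini-Hochberg over 21339 tested genes). An interaction is termed higher where the response of bon123 exceeded that of WT, and lower where it was below it.

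The libraries set limits on what the comparison can hold. The deposited values are TPM, so read depth is unknown. Scaling factors were 0.637 to 0.867 in bon123 ABA, 1.22 to 1.25 in bon123 mock, 0.998 to 1.04 in WT ABA and 1.03 to 1.12 in WT mock. Replicates correlated at 0.976 to 0.989 across genes, except that pairs with bon123 ABA replicate 3 reached down to 0.959, and ribosomal RNA took 6.1% of WT mock replicate 1 against at most 2.21% of the others. Photosystem and Rubisco genes, which mark green tissue, held 0.183% to 0.247% of all TPM in bon123 ABA and 0.643% to 0.775% in bon123 mock, against 13.3% to 15.4% in WT ABA and 17.1% to 18.17% in WT mock. The summed stomatal markers stood at 68.28 to 139.7 TPM in bon123 ABA and 199.1 to 256.8 TPM in bon123 mock, against 939.7 to 1214 TPM in WT ABA and 1365 to 1643 TPM in WT mock. Most of that sum is 1 gene, the myrosinase gene TGG1, and the other 16 markers summed to 17.37 to 37.59 TPM in bon123 ABA and 28.44 to 32.31 TPM in bon123 mock, against 130.8 to 147.1 TPM in WT ABA and 140 to 158.9 TPM in WT mock. Of the 17 markers 14 were lower in every bon123 library than in every WT library, among them BASL, a polarity protein of the stomatal lineage at 0 in all 6 bon123 libraries, and SPCH, MUTE, EPF1, EPF2, EPFL9 and SDD1, which did not exceed 0.33 TPM there. The share of all tested genes that lay lower in every bon123 library was not counted. By the limma test, a different measure, the genotypes differed in either direction for 79.2% of all tested genes under ABA and 72.8% in mock. Called lower in bon123 were 8561 of the 21339 tested genes under ABA and 8027 in mock. FAMA, SLAC1 and ALMT12 overlapped between the genotypes, ALMT12 at 9.47 to 24.26 TPM in bon123 and 6.4 to 30.71 TPM in WT. The summed root markers other than the beta-glucosidase gene PYK10 spanned 122.2 to 132.8 TPM in bon123 ABA, 142.2 to 199.5 TPM in bon123 mock, 53.14 to 98.58 TPM in WT ABA and 123.5 to 215.4 TPM in WT mock. These marker sums are TPM before scaling. On scaled values the median ABA response of the 18 tested root markers, PYK10 included, was 0.269 in bon123 and -0.734 in WT. The lower root marker sums of bon123 ABA therefore do not stand for a fall on scaled values. The label seedlings thus goes with green-tissue transcripts in WT and with very few of them in bon123. Fewer cells of a type and less RNA per cell cannot be told apart in these samples, and the part that tissue makeup plays in the results was not tested.

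The mutated genes were examined first. BON1 had 0.63 to 1.62 TPM in bon123 ABA and 0.87 to 1.66 TPM in bon123 mock, against 13.43 to 18.27 TPM in WT ABA and 10.13 to 11.42 TPM in WT mock. BON2 had 2.85 to 8.54 TPM in bon123 ABA and 13.89 to 16.18 TPM in bon123 mock, against 21.32 to 24.48 TPM in WT ABA and 30.1 to 36.26 TPM in WT mock. Both were below WT in each treatment with no overlap. BON3 lay under the limit for testing, at 0.32 to 0.75 TPM in bon123 and 0.08 to 0.17 TPM in WT, and was not lower in bon123. The interactions of BON1 (-0.33 ± 0.33, adjusted p = 0.446, limma) and BON2 (-0.21 ± 0.29, adjusted p = 0.588) were not called, and none of the 5 tested genes of the BON family list was. Without bon123 ABA replicate 3, BON1 was called at -0.64.

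Across the transcriptome the ABA response differed between the genotypes for 9157 genes, 42.9% of those tested. Of these 4605 were higher (21.6%) and 4552 lower (21.3%), and 2081 and 2030 of them differed at least 2-fold. The ABA response itself was called for 14261 genes in bon123 (66.8%), of which 6876 rose and 7385 fell, and for 10372 genes in WT (48.6%), of which 4744 rose and 5628 fell. The genotypes differed for 16900 genes under ABA (79.2%) and for 15526 in mock (72.8%). The even division between higher and lower depended on the scaling. Without scaling between libraries 2004 interactions were higher and 8840 lower, and with upper-quartile factors 3232 and 6096, as the median interaction of all genes moved to -0.444 and -0.163, against 0.0233 here.

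The called genes were sorted by the treatment in which the genotypes differed. A gene belongs to the ABA level class where the genotype difference under ABA was at least 2 times that in mock, to the mock level class where the difference in mock was at least 2 times that under ABA, and to the both levels class otherwise. The ABA level classes held 1994 higher (21.8% of called genes) and 1587 lower genes (17.3%). The mock level classes held 708 higher (7.73%) and 859 lower genes (9.38%), whose levels by this rule lie closer together in the ABA libraries than in mock. In the remaining 1903 higher (20.8%) and 2106 lower genes (23%) both levels contributed. For ABA level higher genes the median difference of bon123 from WT was 1.39 under ABA and 0.268 in mock. For mock level higher genes it was -0.193 under ABA and -1.24 in mock. The rule itself fixes that such genes are lower in bon123 in mock and closer to WT under ABA. Mock level lower genes had medians of 0.177 under ABA and 1.32 in mock. These classes rest on the fitted sizes and carry no test of their own. Sorting by which genotype difference passed the test instead gave 1069 ABA level higher, 772 ABA level lower, 434 mock level higher and 537 mock level lower genes, and left most genes, 3075 higher and 3219 lower, with both.

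**Figure D1:**
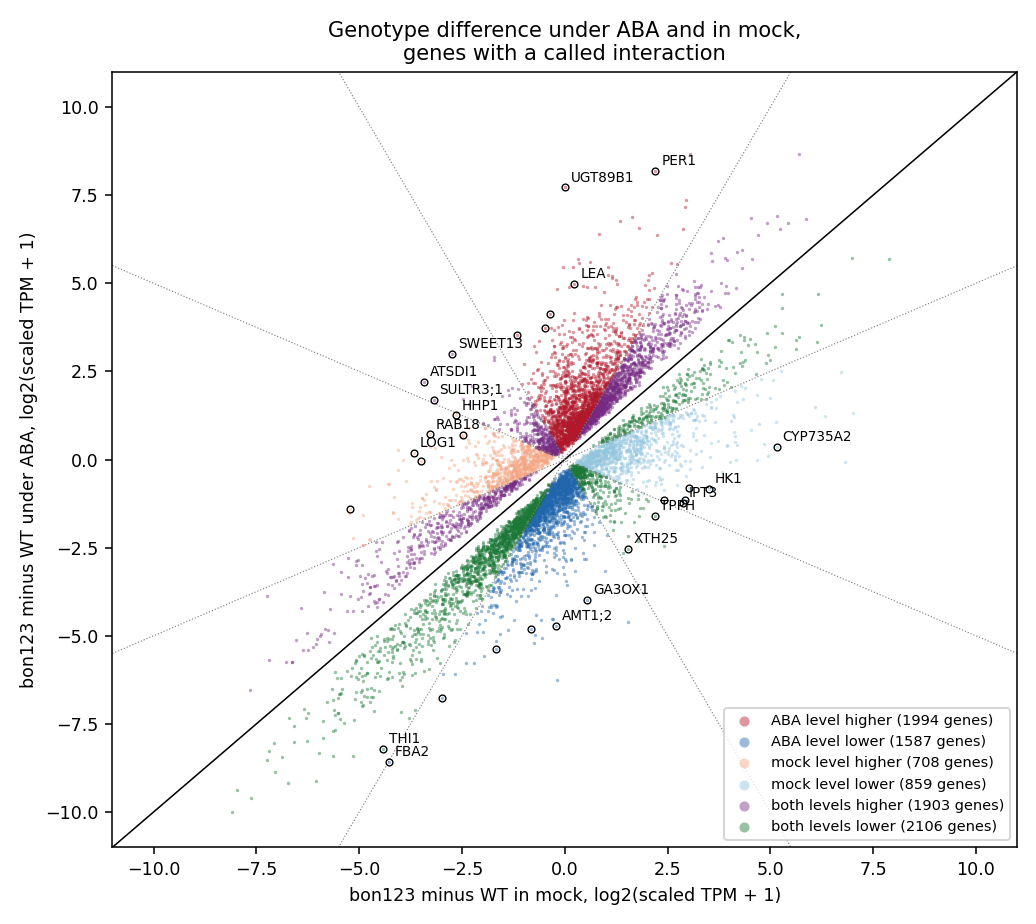
Difference of bon123 from WT under ABA (vertical axis) against the difference in mock (horizontal axis), both on the log2(scaled TPM + 1) scale, for the genes with a called interaction, coloured by class, with the genes named by rule ringed and the first 3 of each class labelled. The solid line marks equal differences, and points above it have a higher interaction. Dotted lines mark differences that stand 2 to 1 in size, and the 1994 ABA level higher genes lie near the vertical axis while the 859 mock level lower genes lie near the horizontal one.

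Most interactions arose where ABA moved a gene in bon123 and was not called in WT, or moved it further in bon123. Among higher interactions, 1791 genes (19.6% of called genes) rose in bon123 and were not called in WT, and 1456 (15.9%) rose in both with the greater rise in bon123. Among lower interactions, 1821 (19.9%) fell in bon123 and were not called in WT, and 1580 (17.3%) fell in both with the greater fall in bon123. Opposite responses were rarer. Genes that rose in bon123 and fell in WT numbered 378 (4.13%), and 382 (4.17%) fell in bon123 and rose in WT. A response in WT that was not called in bon123 accounted for 706 falls (7.71%) and 477 rises (5.21%). Some interactions come from genes that bon123 scarcely expressed. In 602 called genes (6.57%) all 6 bon123 libraries were under 1 scaled TPM, and in 451 (4.93%) all 6 WT libraries were. The genotype under 1 scaled TPM can then add less than 1 in size to the interaction. The rest is the WT response with its sign reversed in the 602 genes, and the bon123 response in the 451.

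**Figure D2:**
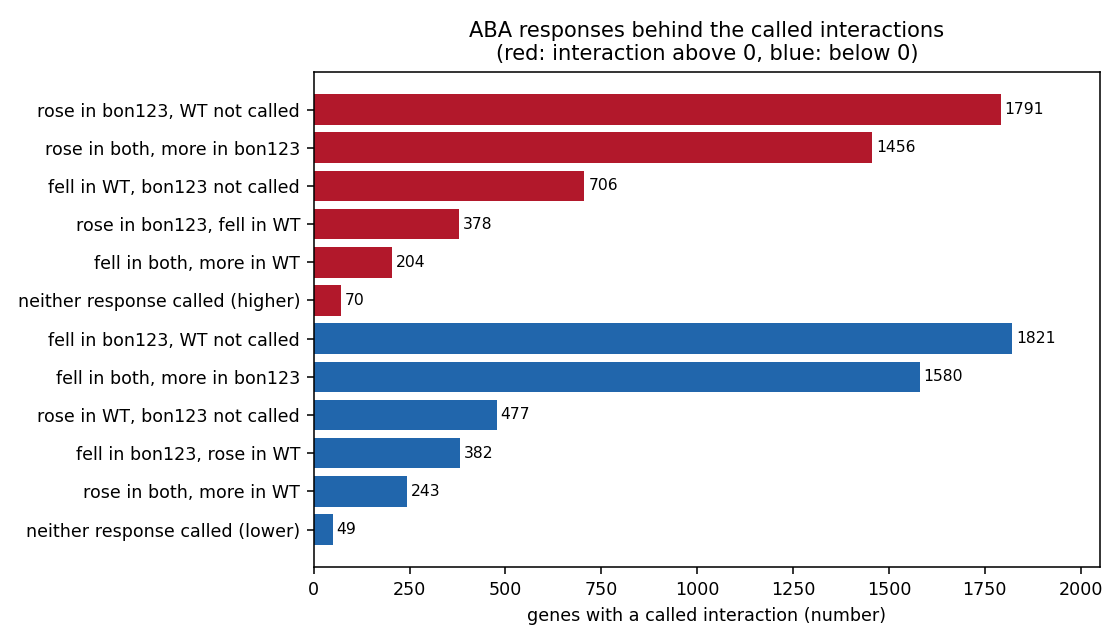
Number of genes with a called interaction (horizontal axis) by the pattern of their ABA responses, where rose and fell mean a called response, with red bars for higher and blue bars for lower interactions. The longest bars, 1821 and 1791 genes, are responses called in bon123 and not in WT.

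Genes were named by a rule given under data processing, which admits only part of each class. Among the genes that it admits, the largest ABA level higher interactions were in genes that ABA raised strongly in bon123. In WT it raised them less or not at all, or lowered them. UGT89B1 (AT1G73880, chr1:27784928-27786804), placed like all genes here by RefSeq in TAIR10.1, encodes a flavonol glucosyltransferase and had 367, 335 and 321 scaled TPM in bon123 ABA, 0 in all 3 libraries of bon123 mock, 3.24, 0 and 0 in WT ABA, and 0 in all 3 libraries of WT mock. It was high in the 3 bon123 ABA libraries and listed at 0 in 8 of the other 9, so no fold is given. UGT89B1 passed the filter of 1 TPM in 3 libraries only through bon123 ABA, and exact zeros can be failed estimates. Its interaction of 7.72 ± 0.61 (adjusted p = 4.43e-06, limma) therefore rests on that group. PER1 (AT1G48130, chr1:17780429-17781727), the 1-Cys peroxiredoxin of maturing seeds, had 293, 384 and 376 scaled TPM in bon123 ABA, 3.33, 8.86 and 1.78 in bon123 mock, 0.203, 0.0967 and 0.311 in WT ABA, and 0, 0 and 0.214 in WT mock. The bon123 ABA libraries stood far above all others, bon123 was also above WT in mock, and the interaction was 5.98 ± 0.49 (adjusted p = 5.96e-06).

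LEA (AT2G21490, chr2:9205990-9207125), a probable dehydrin, had 90.8, 127 and 148 scaled TPM in bon123 ABA, 0.370, 0.485 and 0.112 in bon123 mock, 2.702, 2.63 and 3.18 in WT ABA, and 0, 0.144 and 0.214 in WT mock. ABA raised it in both genotypes, by 6.52 in bon123 and 1.78 in WT, and the genotypes overlapped in mock only. MYB41 (AT4G28110, chr4:13968029-13969525), a transcription factor that activates suberin synthesis, had 197, 188 and 242 scaled TPM in bon123 ABA, 1.48, 2.42 and 3.41 in bon123 mock, 13.04, 10.1 and 9.66 in WT ABA, and 3.26, 2.81 and 3.98 in WT mock, with responses of 5.96 in bon123 and 1.45 in WT. ABCG6 (AT5G13580, chr5:4370692-4373201), a transporter needed for suberin, followed the same course with 664, 552 and 336 scaled TPM in bon123 ABA, 10.2, 11.6 and 15.7 in bon123 mock, 49.1, 32.3 and 30.9 in WT ABA, and 13.6, 19.9 and 19.8 in WT mock and an interaction of 4.21 ± 0.38 (adjusted p = 1.09e-05, limma). In both genes the genotypes overlapped in mock. That they stood apart under ABA was required by the rule that named these genes.

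CEP2 (AT3G48340, chr3:17897506-17899351), a cysteine endopeptidase with a KDEL tail, moved in opposite directions. It had 100.2, 111 and 105 scaled TPM in bon123 ABA, 9.17, 6.82 and 8.04 in bon123 mock, 10.8, 8.66 and 5.66 in WT ABA, and 11.3, 24.4 and 24.2 in WT mock. It rose in bon123 by 3.57 and fell in WT by 1.13, and the interaction was 4.70 ± 0.39 (adjusted p = 5.93e-06, limma).

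In AMT1;2 and GA3OX1, of the ABA level lower class, ABA left bon123 with little of transcripts that WT retained in part or raised. Over all 1587 genes of the class the median response was -1.09 in bon123 and -0.117 in WT. In 151 of them the response rose in WT and was not called in bon123. AMT1;2 (AT1G64780, chr1:24060640-24062804), which encodes a high-affinity ammonium transporter of roots, had 0.461, 0.147 and 0.439 scaled TPM in bon123 ABA, 70.0, 87.3 and 94.7 in bon123 mock, 34.2, 33.5 and 35.7 in WT ABA, and 96.9, 92.9 and 99.0 in WT mock. In mock the genotypes overlapped, whereas under ABA every bon123 library was under 1 scaled TPM. Its interaction was -4.52 ± 0.17 (adjusted p = 5.39e-08, limma). GA3OX1 (AT1G15550, chr1:5344388-5346342), the enzyme of the last step to active gibberellin, had 1.22, 1.05 and 1.55 scaled TPM in bon123 ABA, 22.02, 20.7 and 19.1 in bon123 mock, 30.1, 34.3 and 40.1 in WT ABA, and 13.2, 14.0 and 14.4 in WT mock. ABA lowered it in bon123 (-3.25 on the log2 scale) and raised it in WT (1.26), and no libraries overlapped between genotypes.

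Other genes of this class belong to chloroplasts, and their bon123 levels were low in mock already. FBA2 (AT4G38970, chr4:18163496-18166008), a plastid aldolase of the Calvin cycle, had 2.87, 3.45 and 5.48 scaled TPM in bon123 ABA, 158, 149 and 126 in bon123 mock, 1756, 1665 and 2164 in WT ABA, and 2826, 2667 and 2917 in WT mock, a fall of 4.91 in bon123 against 0.60 in WT. FdC1 (AT4G14890, chr4:8520819-8521506), a plastid ferredoxin, was listed at 0 in all 3 libraries of bon123 ABA and had 19.0, 18.23 and 16.5 in bon123 mock, 96.9, 114 and 116 in WT ABA and 138, 149 and 158 scaled TPM in WT mock. These genes move together with the green-tissue share, which was lower in bon123 ABA than in bon123 mock, and its part in these values was not tested. MYBL2 (AT1G71030, chr1:26795052-26796532), a repressor of anthocyanin synthesis, had 2.04, 1.25 and 2.46 scaled TPM in bon123 ABA, 27.6, 30.1 and 28.8 in bon123 mock, 106, 117 and 136 in WT ABA, and 86.0, 96.6 and 98.3 in WT mock. It fell in bon123 by 3.38 while the WT response was not called (0.34, adjusted p = 0.0761, limma). GRP3S (AT2G05380), a glycine-rich protein gene, had an interaction of -4.01 ± 0.43 (adjusted p = 3.58e-05).

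**Figure D3:**
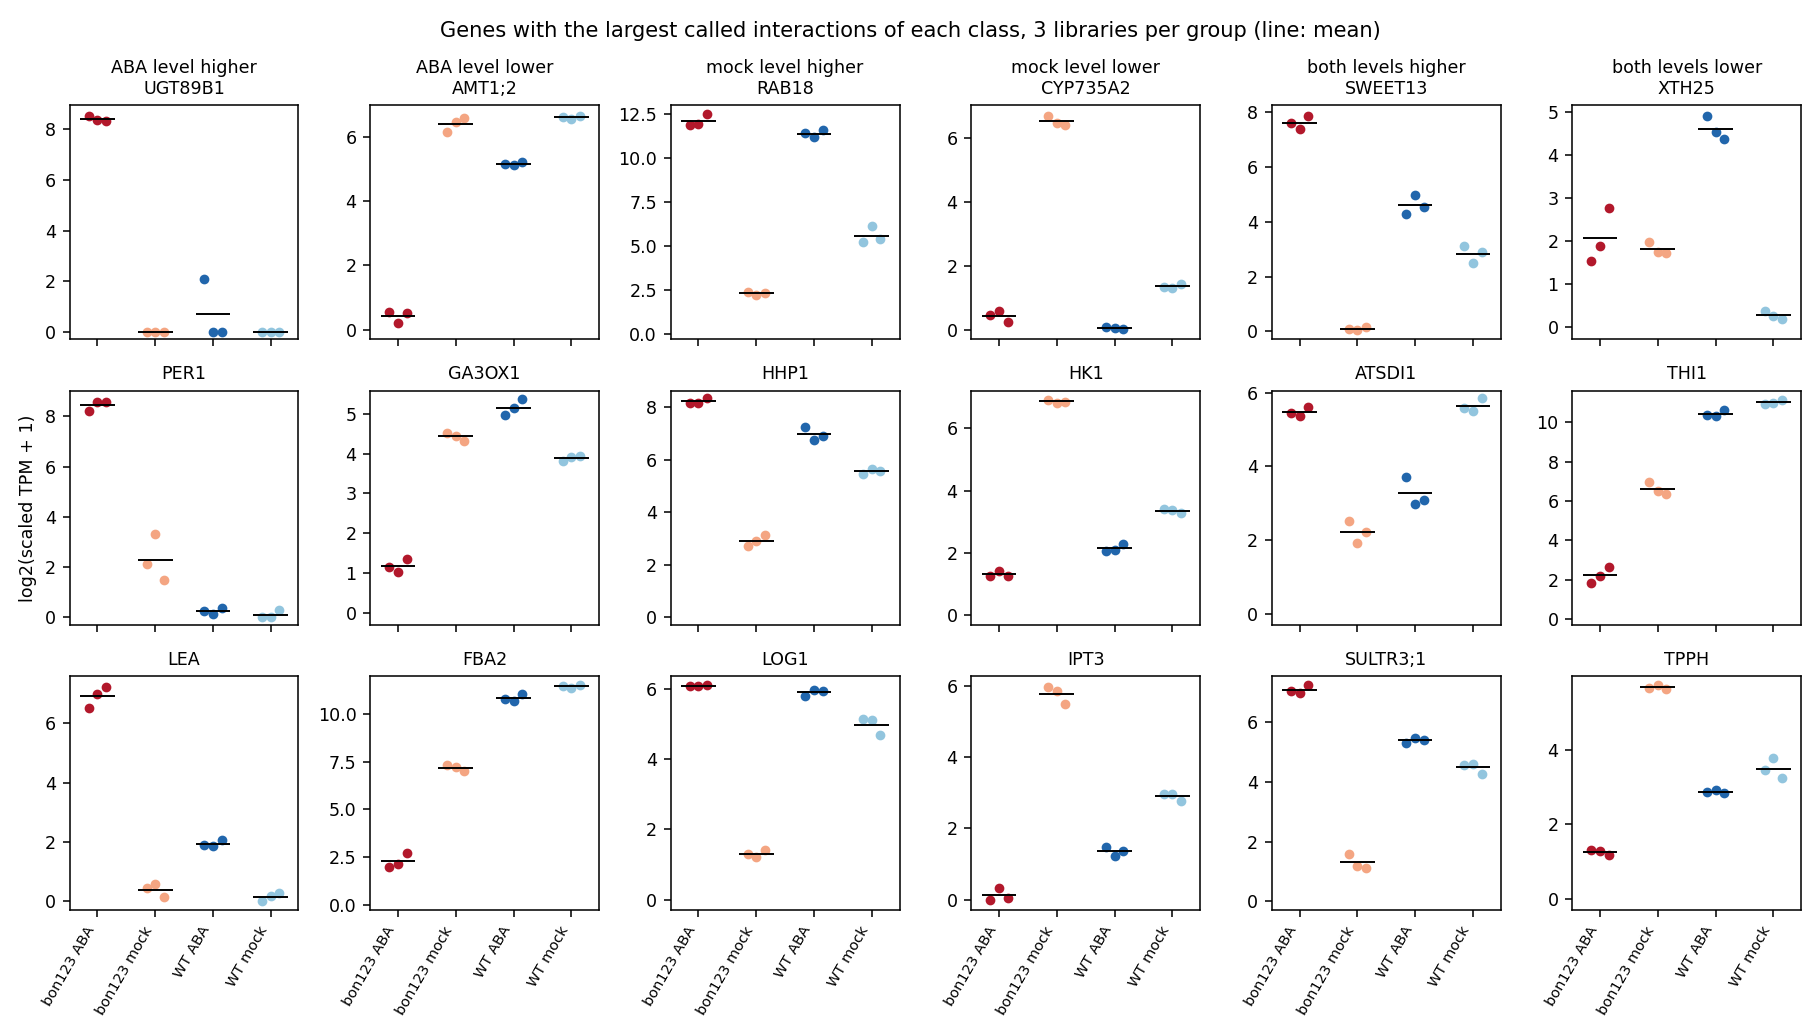
Levels as log2(scaled TPM + 1) in each of the 12 libraries (vertical axis) for 3 genes of each class, in columns by class, with bon123 ABA, bon123 mock, WT ABA and WT mock along the horizontal axis. The genes have the largest called interactions of their class among those that the naming rule admits. Points are libraries and lines are group means. In the ABA level columns the bon123 ABA points stand apart, and in the mock level columns the bon123 mock points do. The rule that named these genes allows no overlap between the genotypes in that treatment.

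In all 708 mock level higher genes the fitted mock level was lower in bon123 than in WT. Under ABA 487 of them were still fitted below WT, by less than in mock, and 221 above it. RAB18 (AT5G66400, chr5:26518277-26519447), the ABA-induced dehydrin that serves as a standard marker of the hormone, had 3761, 4030 and 5748 scaled TPM in bon123 ABA, 4.30, 3.67 and 4.17 in bon123 mock, 2760, 2335 and 3075 in WT ABA, and 37.4, 69.3 and 41.6 in WT mock. In mock, where the naming rule allows no overlap, each bon123 library was far below each WT library, at a difference of -3.27. Under ABA the level in bon123 was higher by 0.71 (adjusted p = 0.0124, limma). The interaction of RAB18 was 3.98 ± 0.32 (adjusted p = 4.8e-06), from rises of 9.78 in bon123 and 5.80 in WT.

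HHP1 (AT5G20270, chr5:6840833-6842946), a heptahelical membrane protein known as a negative regulator of ABA signalling, had 285, 285 and 323 scaled TPM in bon123 ABA, 5.57, 6.43 and 7.67 in bon123 mock, 152, 105 and 119.6 in WT ABA, and 42.8, 48.9 and 46.5 in WT mock. LOG1 (AT2G28305, chr2:12081023-12084678), an enzyme that activates cytokinin, had 66.4, 66.6 and 68.5 scaled TPM in bon123 ABA, 1.45, 1.33 and 1.67 in bon123 mock, 55.1, 61.8 and 60.7 in WT ABA, and 34.5, 33.5 and 25.0 in WT mock. Under ABA the genotype difference of LOG1 was not called (0.18, adjusted p = 0.168, limma), and nearly the whole interaction of 3.86 ± 0.16 stemmed from mock, where the difference was -3.67.

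Responses ran in opposite directions in ATSPS4F (AT4G10120), a sucrose-phosphate synthase, and TBL45 (AT2G30010), a member of the family of wall acetyltransferases. ATSPS4F rose by 2.81 in bon123 and fell by 1.02 in WT. TBL45 had 3.88, 5.51 and 7.25 scaled TPM in bon123 ABA, 1.71, 1.52 and 1.44 in bon123 mock, 5.44, 6.13 and 5.18 in WT ABA, and 24.5, 27.9 and 32.0 in WT mock, and its genotypes overlapped under ABA. HMT3 (AT3G22740), which makes methionine from homocysteine, rose by 2.92 in bon123, and its WT response was not called (-0.24, adjusted p = 0.249, limma).

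Among the genes that the rule admits, the largest mock level lower interactions were in CYP735A2, HK1 and IPT3, which bon123 held at high levels in mock and lost under ABA. CYP735A2 (AT1G67110, chr1:25061673-25065446), the hydroxylase that makes trans-zeatin cytokinins, had 0.369, 0.503 and 0.188 scaled TPM in bon123 ABA, 102, 87.4 and 84.5 in bon123 mock, 0.0675, 0.0387 and 0.0301 in WT ABA, and 1.54, 1.495 and 1.72 in WT mock. HK1 (AT2G17820, chr2:7742870-7748502), a histidine kinase described as an osmosensor, had 1.41, 1.68 and 1.38 scaled TPM in bon123 ABA, 119, 111 and 114 in bon123 mock, 3.21, 3.27 and 3.93 in WT ABA, and 9.55, 9.51 and 8.76 in WT mock. IPT3 (AT3G63110, chr3:23317971-23319636), the nitrate-responsive enzyme of the first step of cytokinin synthesis, had 0, 0.258 and 0.0314 scaled TPM in bon123 ABA, 62.1, 57.5 and 44.4 in bon123 mock, 1.77, 1.33 and 1.58 in WT ABA, and 6.82, 6.88 and 5.87 in WT mock. In each of them the 3 bon123 mock libraries were the highest of the 12 and ABA took bon123 below 2 scaled TPM. Their interactions were -4.79 ± 0.16 (adjusted p = 2.06e-08), -4.34 ± 0.13 (adjusted p = 1e-08) and -4.11 ± 0.20 (adjusted p = 2.62e-07, limma).

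APK4 (AT5G67520), an adenylyl-sulphate kinase, and CLE2 (AT4G18510), a small signalling peptide, fell in bon123 by 4.24 and 3.89, and their WT responses were not called (-0.16 with adjusted p = 0.49 and -0.05 with adjusted p = 0.867, limma). ATSBT5.2 (AT1G20160), a secreted protease that responds to carbon dioxide, had 12.3, 9.62 and 7.58 scaled TPM in bon123 ABA, 48.6, 48.4 and 63.0 in bon123 mock, 20.5, 24.2 and 23.0 in WT ABA, and 9.73, 10.2 and 7.499 in WT mock. It fell in bon123 and rose in WT, at an interaction of -3.56 ± 0.24 (adjusted p = 1.71e-06).

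Where both levels contributed, 338 of the 1903 higher genes crossed over, with fitted levels lower than WT in mock and higher under ABA. In 1074 the fitted level was above WT in both treatments, and in 491 it was below in both. SWEET13 and ATSDI1 were among those that crossed over. SWEET13 (AT5G50800, chr5:20665068-20667312), a sucrose exporter, had 196, 164 and 231 scaled TPM in bon123 ABA, 0.0575, 0.0329 and 0.119 in bon123 mock, 18.4, 30.9 and 22.5 in WT ABA, and 7.61, 4.66 and 6.43 in WT mock, and its interaction of 5.74 ± 0.28 (adjusted p = 2.5e-07, limma) was the largest of this class among the genes that the rule admits. ATSDI1 (AT5G48850, chr5:19805437-19807853), a sulphur-deficiency protein that represses glucosinolate synthesis, had 42.5, 40.4 and 47.7 scaled TPM in bon123 ABA, 4.76, 2.81 and 3.69 in bon123 mock, 12.2, 6.95 and 7.52 in WT ABA, and 46.9, 44.1 and 56.7 in WT mock. ABA raised it by 3.25 in bon123 and lowered it by 2.38 in WT. The sulphate transporter gene SULTR3;1 (AT3G51895) had an interaction of 4.87 ± 0.19, with 5.79 in bon123 and 0.92 in WT.

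In the opposite direction XTH25 (AT5G57550, chr5:23304782-23306440), a cell wall xyloglucan enzyme, had 1.89, 2.66 and 5.78 scaled TPM in bon123 ABA, 2.9, 2.33 and 2.29 in bon123 mock, 29.0, 22.02 and 19.6 in WT ABA, and 0.281, 0.189 and 0.134 in WT mock. Its response was not called in bon123 (0.25, adjusted p = 0.426, limma), while ABA raised it in WT by 4.34. TPPH (AT4G39770), a trehalose-phosphate phosphatase, fell by 4.41 in bon123 and by 0.61 in WT, and the plastid thiamine synthesis gene THI1 (AT5G54770) fell by 4.38 in bon123 and by 0.58 in WT.

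Promoters are shown for one leading gene of each ABA and mock level class, to set sequence beside the response. They are the 250 bases before the annotated start, RefSeq annotation of TAIR10.1, in lower case with motif matches in capitals. Searched on both strands were the ABRE core ACGTG, the DRE core CCGAC, the W-box TTGACC or TTGACT, the evening element AAATATCT, the telo-box AAACCCTA, the site II element TGGGCC or TGGGCT and the CAMTA core CGCGT. The windows of PER1 (chr1:17780179-17780428 on the plus strand), AMT1;2 (chr1:24062805-24063054 on the minus strand), HHP1 (chr5:6842947-6843196 on the minus strand) and CYP735A2 (chr1:25065447-25065696 on the minus strand) read as follows.
PER1: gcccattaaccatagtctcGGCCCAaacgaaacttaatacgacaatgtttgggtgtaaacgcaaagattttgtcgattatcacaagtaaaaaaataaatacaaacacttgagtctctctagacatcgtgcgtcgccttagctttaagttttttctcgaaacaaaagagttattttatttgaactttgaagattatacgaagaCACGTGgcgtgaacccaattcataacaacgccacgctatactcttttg
AMT1;2: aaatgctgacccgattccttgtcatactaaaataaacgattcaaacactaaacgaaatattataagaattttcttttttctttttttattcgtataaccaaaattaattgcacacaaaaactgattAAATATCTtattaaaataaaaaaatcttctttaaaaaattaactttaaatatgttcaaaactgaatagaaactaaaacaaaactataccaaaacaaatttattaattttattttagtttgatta
HHP1: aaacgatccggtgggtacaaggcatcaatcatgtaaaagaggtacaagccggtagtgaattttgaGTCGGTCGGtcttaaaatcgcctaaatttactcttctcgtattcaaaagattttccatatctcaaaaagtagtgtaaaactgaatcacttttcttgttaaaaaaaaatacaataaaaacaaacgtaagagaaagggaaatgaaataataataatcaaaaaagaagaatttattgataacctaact
CYP735A2: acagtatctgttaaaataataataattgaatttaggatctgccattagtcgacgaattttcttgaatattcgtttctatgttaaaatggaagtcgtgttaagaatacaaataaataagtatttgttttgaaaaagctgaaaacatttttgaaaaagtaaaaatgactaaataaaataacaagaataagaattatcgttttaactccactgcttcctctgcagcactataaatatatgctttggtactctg

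The PER1 window held 2 ABRE core matches, both from 1 CACGTG read on either strand, and 1 site II match. AMT1;2 had 1 evening element, HHP1 had 2 DRE cores and the CYP735A2 window held no match. Of the 30 genes named by rule, 19 had no ABRE core, CEP2, ABCG6, LOG1 and SULTR3;1 among them, 6 had 1 match and 2 had 2 (PER1 and TPPH). RAB18, MYB41 and ATSDI1 each had 3. The share of windows with the ABRE core was 32% in 1958 ABA level higher windows, 20.6% in 1577 ABA level lower windows, 25.4% in 697 mock level higher windows, 24.5% in 846 mock level lower windows, 26.9% in 1884 both levels higher windows and 22.9% in 2097 both levels lower windows, against 24% of the windows of 21018 tested genes. The DRE core was in 15.1% of ABA level higher windows and 12.8% of all windows, and the CAMTA core in 9.24% of ABA level higher windows and 7.34% of all windows. The W-box was in 31.7% of ABA level higher, 33.7% of mock level lower and 23.61% of both levels lower windows, against 28.4% of all windows. The site II element, found before genes of growing cells, was in 25.3% of ABA level lower, 25% of both levels lower and 13.6% of mock level lower windows, against 21.3% of all windows. The telo-box was in 4.38% of ABA level lower, 4.39% of both levels lower and 3.45% of all windows, and the evening element in 4.19% to 5.94% of the classes and 4.81% of all windows. A match is a run of letters and not a bound site.

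Within the ABA pathway called interactions of the feedback phosphatases were higher without exception, and those of the dehydration proteins were higher but for 1, though many members were not called. All 9 clade A PP2C genes rose in both genotypes, with a median response of 4.98 in bon123 and 3.1 in WT, and 6 had a higher interaction (66.7%, against 21.6% of all genes), 0 a lower one, and 3 were not called. HAI3 (AT2G29380) had 735, 693 and 778 scaled TPM in bon123 ABA, 0.435, 0.0740 and 0.661 in bon123 mock, 103, 89.6 and 78.8 in WT ABA, and 0.513, 0.495 and 0.848 in WT mock, an interaction of 3.25 ± 0.23 (adjusted p = 2.03e-06, limma). Its genotypes overlapped in mock and stood apart under ABA. ABI2 (AT5G57050), HAI2 and PP2CA followed at 2.09, 1.99 and 1.88. ABI1, a long-known member, was at 0.44 ± 0.17 and not called (adjusted p = 0.0588), but was called at 0.51 to 0.54 without bon123 ABA replicate 3, WT ABA replicate 3 or WT mock replicate 1.

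Of 21 ABA and dehydration protein genes, 20 rose in each genotype and 10 had a higher interaction (47.6%), 4 through the ABA level, 5 through the mock level and 1 through both. COR414-TM1, a chloroplast membrane protein gene, was lower at -1.91, and 10 were not called. Without bon123 ABA replicate 3, 4 genes of the list were lower. The median interaction of the list was 1.62, and 0.851 without WT mock replicate 2. EM6 (AT2G40170), a LEA protein of seeds, had 4172, 4964 and 7626 scaled TPM in bon123 ABA, 8.80, 8.95 and 8.95 in bon123 mock, 175, 112 and 132 in WT ABA, and 1.12, 1.72 and 1.01 in WT mock, and here the ABA level made the difference (3.16 ± 0.31, adjusted p = 1.82e-05, limma). RD29A (AT5G52310), a dehydration gene, had 103, 86.8 and 71.0 scaled TPM in bon123 ABA, 1.35, 0.707 and 0.964 in bon123 mock, 417, 375 and 459.7 in WT ABA, and 49.3, 43.5 and 68.2 in WT mock. It was lower in bon123 in both treatments and further so in mock. KIN1 (AT5G15960) had an interaction of 3.08, and since KIN1 and KIN2 are near-identical neighbours their single values are uncertain. RD29B, a strongly induced marker, was not called (1.86 ± 0.92, adjusted p = 0.129), but was at 2.88 without WT mock replicate 1. Of 7 seed maturation genes that could be tested, of 14 listed, 3 were higher, PER1 and the oleosin gene OLEO1 (3.80) among them, and 1 was lower. Without bon123 mock replicate 2, 5 of them were higher.

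**Figure D4:**
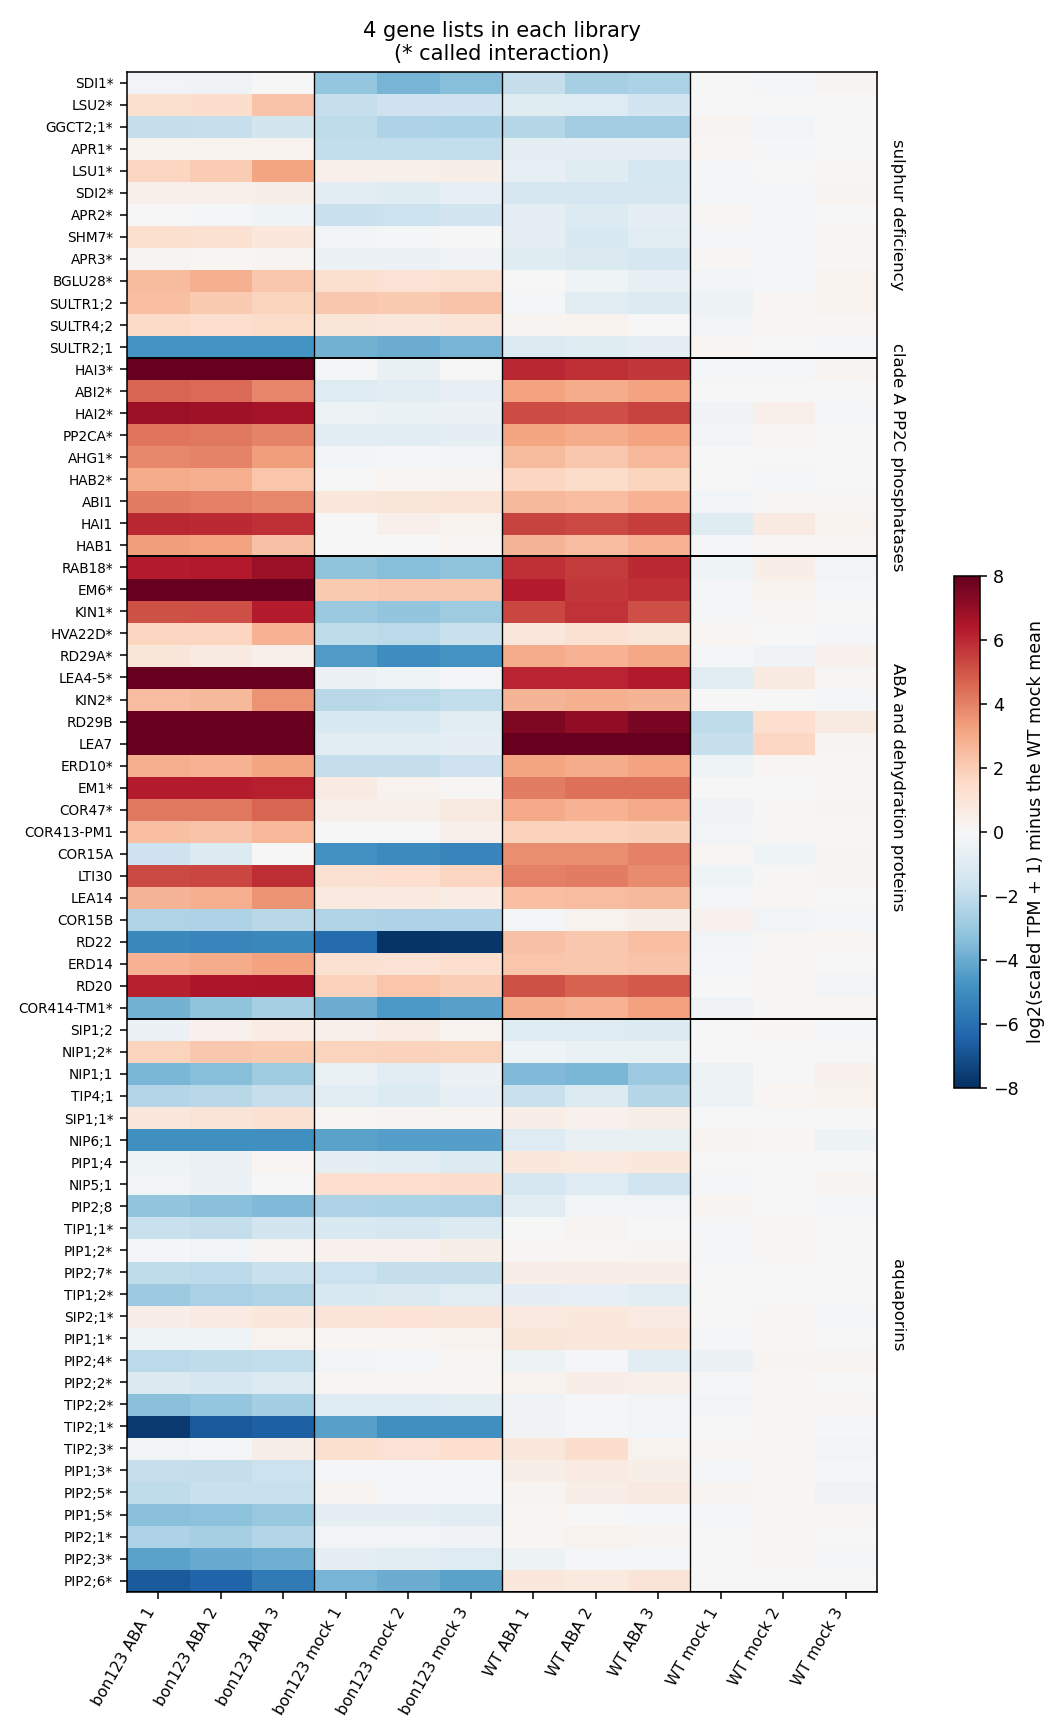
Level of each gene of 4 lists (rows) in each of the 12 libraries (columns), as log2(scaled TPM + 1) minus the mean of the WT mock libraries, red above and blue below, with the colour scale capped at 8 and asterisks for called interactions. Dehydration genes such as RAB18, KIN1 and RD29A are blue in bon123 mock and red under ABA, and the aquaporins PIP2;1, PIP2;3 and PIP2;6 are darker blue in bon123 ABA than in bon123 mock.

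Receptors, kinases and transcription factors of the pathway had interactions of both signs, as all tested genes did (21.6% higher and 21.3% lower). Of 10 tested ABA receptor genes 1 was higher (10%) and 3 lower (30%, and 5 genes without bon123 ABA replicate 3), and 6 fell in each genotype. PYL6 (AT2G40330) had 0.138, 0.172 and 0.612 scaled TPM in bon123 ABA, 64.7, 68.5 and 58.6 in bon123 mock, 0.164, 0.0387 and 0.0501 in WT ABA, and 5.70, 5.25 and 5.46 in WT mock, and ABA left both genotypes under 1 scaled TPM, so that its interaction of -3.07 ± 0.19 (adjusted p = 1.05e-06, limma) came from a higher mock level. PYL4 was alike at -1.51, and PYL3 was higher at 2.56. Among 10 SnRK2 genes 1 was higher (10%) and 2 lower (20%, close to the share of all genes). The higher one, SNRK2.4 (0.41), changed sign without scaling (-0.17), where 5 kinase genes were lower. Of 19 ABA-related transcription factor genes 9 were higher (47.4%) and 2 lower (10.5%), with a list median of 0.292. Without scaling 4 were higher and 5 lower, and the median turned negative. ABI5 (AT2G36270), which drives the seed ABA programme, had 12.9, 13.9 and 9.01 scaled TPM in bon123 ABA, 0.665, 0.912 and 0.964 in bon123 mock, 1.45, 1.40 and 1.87 in WT ABA, and 0.320, 0.252 and 0.357 in WT mock, and AFP1, which binds ABI5, was at 1.83. MYB96, an activator of wax synthesis, was lower (-1.38), as was ABF4 (-1.18), whose levels under ABA overlapped between genotypes.

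Genes of ABA synthesis and breakdown had 4 higher (30.8%) and 2 lower interactions (15.4%) of 13, and 1 lower without bon123 ABA replicate 1, bon123 mock replicate 1 or 2, WT ABA replicate 3 or WT mock replicate 2. NCED2 (AT4G18350), one of the dioxygenases that limit ABA synthesis, had 58.0, 55.6 and 39.4 scaled TPM in bon123 ABA, 1.298, 1.56 and 1.59 in bon123 mock, 0.164, 0.165 and 0.150 in WT ABA, and 0, 0.324 and 0.295 in WT mock. It rose in bon123 and its response in WT was not called (-0.05, adjusted p = 0.84, limma), while the interaction of NCED3, the drought-induced member of the family, was not called (0.42 ± 0.28, adjusted p = 0.248) except without WT ABA replicate 3 (0.67). CYP707A4, an ABA hydroxylase, fell by 1.13 in bon123 and rose by 2.19 in WT.

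In the sulphur deficiency list the genotypes answered ABA in opposite directions. Of 13 tested genes 11 rose in bon123 and 11 fell in WT after ABA, the median responses were 1.23 in bon123 and -0.953 in WT, and 10 had a higher interaction (76.9%) and 0 a lower one, with a median interaction of 2.37 against 0.0233 over all genes. LSU2 (AT5G24660), a small protein induced by low sulphur, had 213, 236 and 434 scaled TPM in bon123 ABA, 24.2, 27.2 and 27.0 in bon123 mock, 45.2, 42.4 and 30.2 in WT ABA, and 90.8, 89.0 and 85.4 in WT mock. APR1 (AT4G04610), a reductase of sulphate assimilation, had 204, 204 and 206 scaled TPM in bon123 ABA, 41.8, 42.4 and 41.5 in bon123 mock, 104, 98.2 and 101 in WT ABA, and 187, 156 and 165 in WT mock. In both, bon123 mock was the lowest group and bon123 ABA the highest. The interaction of APR1 was 2.998 ± 0.11 (adjusted p = 4.17e-08, limma), APR2 was at 2.37, LSU1 at 2.86 and SDI1, the gene named ATSDI1 above, at 5.62. GGCT2;1, an enzyme of glutathione breakdown, was at 3.22, with a response of 0.60 in bon123 and a fall of 2.62 in WT. Phosphate starvation genes had 7 higher and 0 lower interactions of 14, led by the phosphatase gene PEPC1 (AT1G17710) at 4.32 ± 0.38 (adjusted p = 9.67e-06) and the sulpholipid synthase gene SQD2 at 2.81.

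Suberin and wax genes had interactions of both signs. Of 22 tested, 13 were higher (59.1%) and 6 lower (27.3%, against 21.3% of all genes). Besides MYB41 and ABCG6, the higher ones included GPAT5 (AT3G11430), a suberin acyltransferase with 984, 840.2 and 678 scaled TPM in bon123 ABA, 18.6, 20.2 and 23.9 in bon123 mock, 53.5, 33.1 and 31.8 in WT ABA, and 6.45, 11.8 and 9.91 in WT mock, and ASFT (AT5G41040), which adds ferulate to suberin, at 3.21. The lower ones were WSD1, CUT1, CER3, ABCG11, CER5 and CER4, which make or export cuticular lipids. CUT1 (AT1G68530), an elongase of wax fatty acids, had 3.42, 3.21 and 4.05 scaled TPM in bon123 ABA, 6.604, 4.61 and 3.99 in bon123 mock, 898, 718 and 831 in WT ABA, and 212, 254 and 273 in WT mock, and it fell by 0.39 in bon123 and rose by 1.73 in WT. WSD1, a wax ester synthase, was listed at 0 in all 3 libraries of bon123 ABA and at 0 to 0.123 scaled TPM in bon123 mock, against 25.9, 29.4 and 30.1 in WT ABA and 4.17, 4.26 and 2.42 in WT mock, so its interaction of -2.76 is close to the WT response reversed. CER1, an enzyme of wax alkanes, had a higher interaction of 0.66 that was not called without scaling, with 54.3, 59.0 and 57.7 scaled TPM in bon123 ABA and 2.41, 2.23 and 1.64 in bon123 mock, against 439, 357 and 417 in WT ABA and 32.8, 32.1 and 34.0 in WT mock. These divisions run alongside the root and shoot marker levels given above, and the part of tissue makeup in them was not tested.

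Aquaporin genes, which encode water channels, had 17 lower (65.4%, against 21.3% of all genes) and 2 higher interactions of 26, with 15 to 18 lower and 1 to 3 higher over the fits that left out 1 library each. In bon123 20 fell and 2 rose, and in WT 7 fell and 10 rose, with median responses of -1.28 in bon123 and 0.0312 in WT. Of all 21339 tested genes 7385 fell and 6876 rose in bon123, and 5628 fell and 4744 rose in WT. PIP2;1 (AT3G53420) had 277, 248 and 312 scaled TPM in bon123 ABA, 1374, 1363 and 1305 in bon123 mock, 1780, 1868 and 1833 in WT ABA, and 1531, 1660 and 1514 in WT mock. The bon123 ABA libraries lay below all of the other 9, and the interaction was -2.49 ± 0.16 (adjusted p = 1.31e-06, limma). PIP2;3 was at -2.97, although PIP2;2 and PIP2;3 are near-identical and share reads, and PIP2;6 (AT2G39010) had 0.796, 1.23 and 2.78 scaled TPM in bon123 ABA, 13.5, 11.1 and 8.54 in bon123 mock, 357, 319.6 and 385 in WT ABA, and 181, 192 and 191 in WT mock. Of the 17 lower genes 9 belonged to the ABA level, 1 to the mock level and 7 to both.

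Of 40 photosystem and Rubisco genes 23 had a lower interaction (57.5%), all through both levels, 0 a higher one, and 17 were not called. Without bon123 mock replicate 1, 3 were higher. ABA lowered 33 of the 40 in bon123 and 1 in WT. LHCB3 (AT5G54270), a light-harvesting protein gene, had 24.3, 25.5 and 42.0 scaled TPM in bon123 ABA, 228, 195 and 159 in bon123 mock, 3914, 4083 and 4890 in WT ABA, and 4761, 4685 and 4877 in WT mock, with an interaction of -2.50 ± 0.29 (adjusted p = 5.44e-05, limma). Chlorophyll synthesis had 9 lower (52.9%) and 2 higher of 17, although 14 genes fell in each genotype, and without scaling 15 were lower. Flavonoid and anthocyanin genes had 9 lower (56.2%) and 2 higher of 16, with 7 to 11 lower and 1 or 2 higher when 1 library was left out. Here 4 genes fell and 1 rose in bon123, while 5 fell and 8 rose in WT. The median responses of that list were -0.311 in bon123 and 0.785 in WT. For comparison, of all 21339 tested genes 6876 rose and 7385 fell in bon123, and 4744 rose and 5628 fell in WT. MYB90 (AT1G66390), an activator of anthocyanin synthesis, was listed at 0 in all 3 libraries of bon123 ABA and at most 0.148 scaled TPM in bon123 mock, against 33.9, 23.0 and 33.5 in WT ABA and 2.25, 1.58 and 3.22 in WT mock. Dark and sugar starvation genes had 8 lower (66.7%) and 2 higher of 12, and ABA raised 4 of them in bon123 and 10 in WT. Senescence and chlorophyll breakdown genes, of which 13 rose in each genotype, had 5 higher and 5 lower interactions of 14 (35.7% each). That even split became 1 higher and 9 lower without scaling, 3 and 7 with upper-quartile factors, and 3 lower without bon123 mock replicate 1, WT ABA replicate 1 or WT ABA replicate 3. NYC1 (AT4G13250), a chlorophyll b reductase, was higher with 752, 816 and 682 scaled TPM in bon123 ABA, 65.8, 72.0 and 68.4 in bon123 mock, 131, 91.1 and 126 in WT ABA, and 44.0, 50.4 and 44.8 in WT mock. SAG13, a senescence marker, was lower at -2.80.

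Root markers had 9 higher (50%) and 3 lower interactions (16.7%) of 18. EXPA7 (AT1G12560), an expansin of root hairs, had 20.8, 21.9 and 28.2 scaled TPM in bon123 ABA, 5.41, 3.44 and 5.62 in bon123 mock, 6.43, 7.61 and 3.20 in WT ABA, and 6.29, 11.4 and 12.5 in WT mock, and its interaction was 2.82 ± 0.42 (adjusted p = 0.000338, limma). BGLU23, also called PYK10, a beta-glucosidase of root endoplasmic reticulum bodies, was lower (-2.09 ± 0.27), and bon123 mock alone was high, with 15044 to 16411 TPM, while bon123 ABA had 1422 to 1945 TPM, WT ABA 1203 to 1959 TPM and WT mock 1852 to 2563 TPM. Of 17 stomatal markers 1 was higher and 1 lower (5.88% each), and 1 or 2 were higher and 0 to 3 lower when 1 library was left out.

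Growth and hormone lists are read against the 21.6% of all genes with a higher and the 21.3% with a lower interaction. Auxin genes had 9 higher (50%) and 4 lower (22.2%) of 18. ABA lowered 5 of them in bon123 and 10 in WT, against 7385 and 5628 of all 21339 tested genes. Type-A cytokinin response regulators had 4 higher (44.4%) and 2 lower (22.2%) of 9. ARR4 (AT1G10470), which damps cytokinin signalling, had 123.2, 148 and 248 scaled TPM in bon123 ABA, 124, 137 and 105 in bon123 mock, 18.6, 19.8 and 14.5 in WT ABA, and 79.2, 73.5 and 83.1 in WT mock. Its response was not called in bon123 (0.44, adjusted p = 0.0966, limma), and it fell in WT. Expansins, XTHs and cellulose synthesis had 4 higher (16%) and 10 lower (40%) of 25, with EXPA8 at 3.26 chiefly through its WT mock level. Cell cycle genes had 1 higher (5.88%, and 2 genes without bon123 ABA replicate 1) and 3 lower of 17, both below the share of all genes. Cytoplasmic translation had 2 higher (7.69%) and 9 lower (34.6%) of 26, with 18 lower without bon123 ABA replicate 3, 20 lower without scaling and 17 lower with upper-quartile factors. Clock genes had 9 higher (47.4%) and 1 lower of 19, with a median of 0.427. Without scaling 4 were higher and 5 lower, and the median turned negative. Ethylene genes had 4 higher (22.2%, close to the share of all genes) and 2 lower (11.1%) of 18, but 7 higher without bon123 ABA replicate 3 and 5 lower without bon123 ABA replicate 1.

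Among immune lists, salicylic acid and systemic immunity had 2 higher and 3 lower of 26 (7.69% and 11.5%, below the shares of all genes), with 4 higher without bon123 ABA replicate 1 and 9 lower without scaling. NLR receptors had 2 higher and 10 lower of 20 (50% lower), and 1 to 4 higher and 7 to 10 lower when 1 library was left out, with RPP4 lowest at -1.41. In bon123 12 of the 20 fell and in WT 3, where 7385 of all 21339 tested genes fell in bon123 and 5628 in WT. Pattern-triggered immunity had 7 higher (38.9%) and 1 lower of 18, but 1 higher and 2 lower without scaling, where its median changed sign. Camalexin and indolic defence had 3 higher and 3 lower of 12 (25% each, close to the shares of all genes), and 1 higher and 4 lower without scaling, with CYP83B1 (AT4G31500), an enzyme of indole glucosinolates, at 19.6, 18.8 and 27.1 scaled TPM in bon123 ABA, 180.3, 162 and 144 in bon123 mock, 150.2, 158 and 144 in WT ABA, and 195, 200.3 and 184 in WT mock. Aliphatic glucosinolates had 2 higher (15.4%) and 5 lower (38.5%) of 13, and 4 higher without WT mock replicate 3. Jasmonate genes had 4 higher and 6 lower (26.1%) of 23. The higher ones numbered 2 without bon123 ABA replicate 2, any bon123 mock replicate, WT ABA replicate 2 or 3 or WT mock replicate 3, and 11 were lower without scaling. Lower members included the lipoxygenase gene LOX2 at -2.91 and CORI3, a cystine lyase gene at or near 0 in bon123, at -2.77. Lipid transfer proteins and EARLI1 relatives had 0 higher and 3 lower (37.5%) of 8, and 6 lower without bon123 ABA replicate 3, with LTP4 (AT5G59310) at 42.4, 107 and 147 scaled TPM in bon123 ABA, 3.41, 0.509 and 0.486 in bon123 mock, 4728, 4391 and 4146 in WT ABA, and 9.73, 29.9 and 17.7 in WT mock.

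The remaining lists had calls in both directions. Compatible solute metabolism had 5 higher and 5 lower of 12 (41.7% each), and 1 higher and 5 lower without scaling, the lower ones being 3 without bon123 ABA replicate 2 or 3, bon123 mock replicate 3, WT ABA replicate 3 or WT mock replicate 1. DREB/CBF and early dehydration had 3 higher (30%) and 2 lower (20%) of 10, with 5 higher without bon123 ABA replicate 1 and 1 lower when any library was left out but bon123 ABA replicate 3. Calcium pumps, channels and sensors had 7 higher and 7 lower of 27, at 25.9% each close to the 21.6% and 21.3% of all genes, with 4 higher without bon123 mock replicate 2 and 2 higher without scaling. Heat shock had 2 higher (12.5%) and 7 lower (43.8%) of 16, where HSP18.2, a small chaperone, was at -2.80 and the heat shock factor gene HSFA6B at 2.19.

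**Figure D5:**
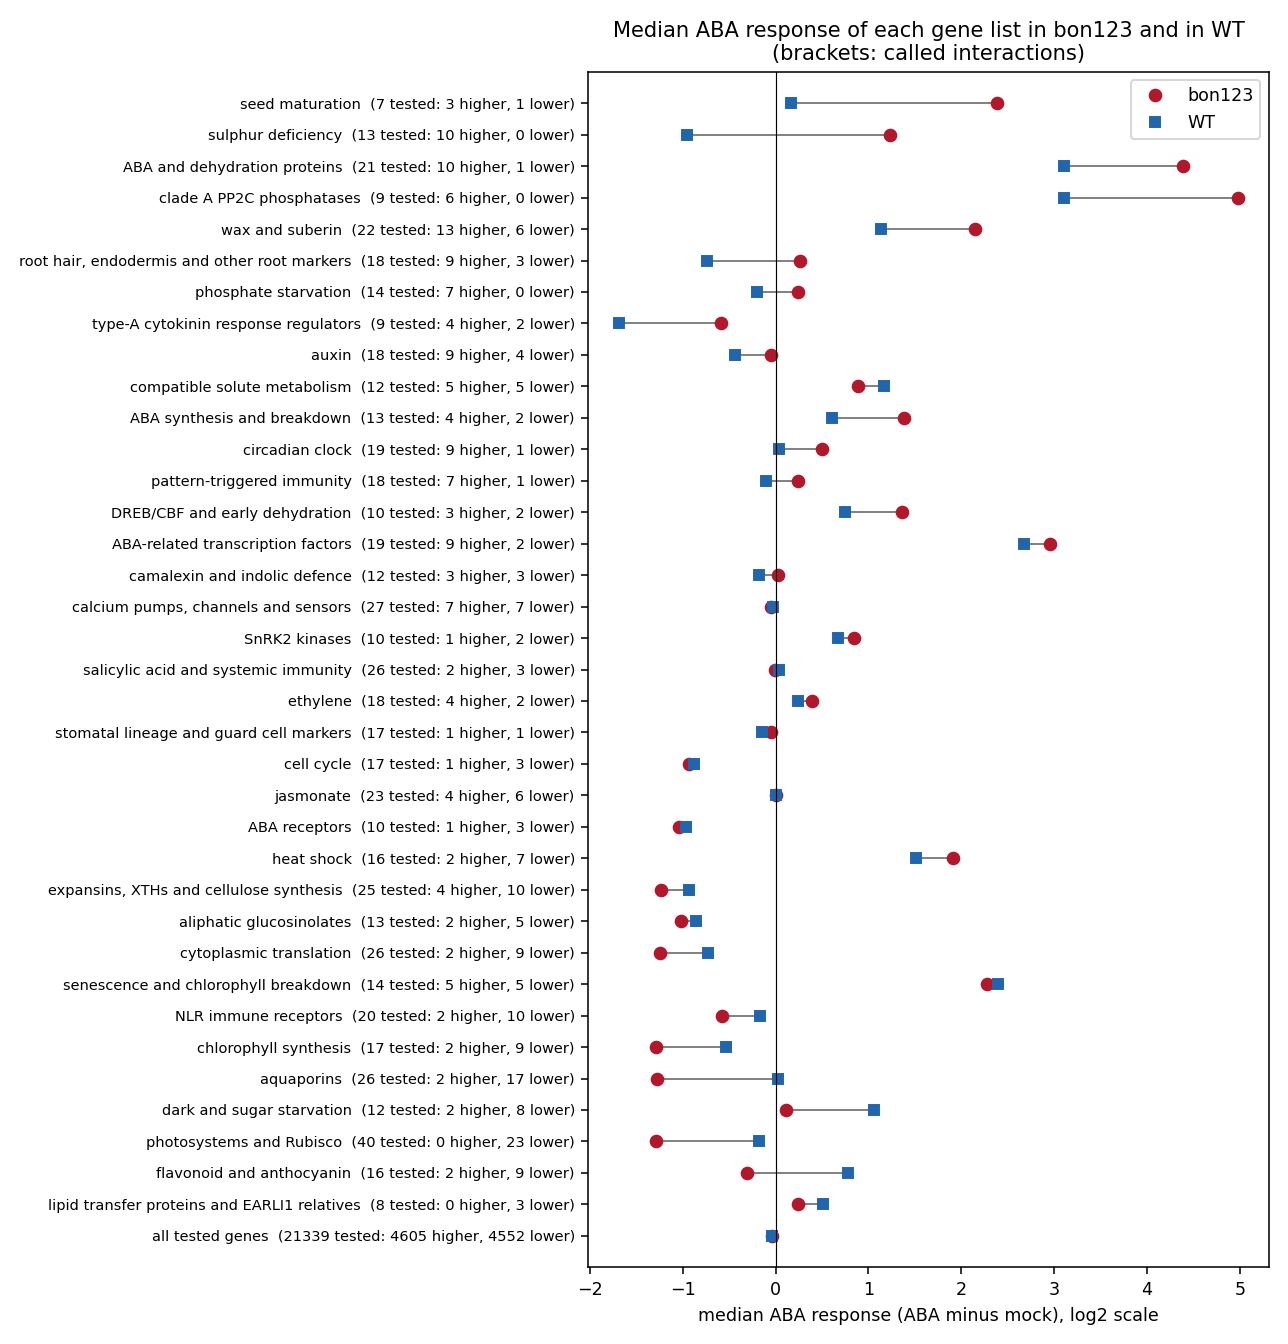
Median ABA response (ABA minus mock, horizontal axis, on the log2(scaled TPM + 1) scale) of the tested members of 36 gene lists and of all tested genes, in bon123 (red circles) and WT (blue squares), with the numbers of called interactions in brackets. The sulphur deficiency list lies at 1.23 in bon123 and -0.953 in WT, and all tested genes lie close to 0 in both.

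The interaction with ABA was set against the interaction with mannitol, the osmotic treatment of the same series (300 mM, 3 libraries per genotype), the comparison most like it. The difference of the interactions, in which mock cancels, was called for 14185 genes (66.5%). It shares the ABA libraries with the interaction itself, and both interactions share the mock libraries. The genes named here were chosen for large ABA interactions, which tilts this difference in the same direction, so no count of them is given. RAB18 had an ABA interaction of 3.98 and a mannitol interaction of -3.80, a difference of 7.80 ± 0.35 (adjusted p = 1.99e-10, limma). AMT1;2 had -4.52 and 1.31, and CYP735A2 -4.79 and -0.07. In TBL45 and ATSBT5.2 the difference was not called. TBL45 had interactions of 3.46 with ABA and 3.301 with mannitol (difference 0.17 ± 0.22, adjusted p = 0.498), and ATSBT5.2 had -3.56 and -3.20 (difference -0.35 ± 0.29, adjusted p = 0.307).

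Over all genes the interaction was higher with ABA than with mannitol for 7070 (33.1%) and lower for 7115 (33.3%), and the median mannitol interaction was 0.0486. All 9 PP2C genes were higher with ABA, with a median interaction of 1.42 with ABA and -1.68 with mannitol. The same held for 18 of 21 ABA and dehydration protein genes (85.7%), with medians of 1.62 with ABA and -1.59 with mannitol. It also held for 17 of 19 ABA-related transcription factors (89.5%), where the median with ABA was 0.292 and the median with mannitol, at -1.58, was the larger in size. The sulphur deficiency list had medians of 2.37 with ABA and 1.11 with mannitol, both positive, and 10 of 13 genes were higher with ABA (76.9%) and 1 lower. For cytoplasmic translation 25 of 26 were lower with ABA (96.2%), with medians of -0.457 with ABA and 1.79 with mannitol. For photosystems 34 of 40 were lower (85%), with medians of -1.13 with ABA and 0.674 with mannitol.

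Some values need care. Reads of overlapping genes cannot be told apart where strand was not counted, and the labels do not say whether it was. RAB18, FdC1, ATSPS4F, LHCB3, ASFT, ABI1, ABF4, AFP1, APR1, APR2, OLEO1, EXPA7 and BGLU23 overlap another annotated gene.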

How the data were processed

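RNA sequencing values came from 1 table of the series. It was deposited by the authors in TPM, a unit read from the column totals. Per the submitters' processing notes, the tools were RSEM 1.3.1, HISAT2 2.1.0 and DESeq2 1.24.0 on the build TAIR10, with no roles stated. Samples were grouped by their labels. TPM values of the 12 libraries were divided by median-of-ratios factors, taken as log2(value + 1), and kept for the 21339 of 33082 genes that reached 1 TPM in 3 or more libraries. Limma 3.58.1 in R 4.3.3 (trend on, 4 group means, two-sided moderated tests, Benjamini-Hochberg over all tested genes) gave the contrasts, and all 18 libraries entered the comparison with mannitol. The scripts were tested on simulated data. The depth is unknown, so precision rests on 3 libraries per group.

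The 37 gene lists (651 genes), the classes and the rule for named genes were chosen with earlier results of these data known. The rule took, within each class, the largest called interactions among genes with a RefSeq symbol, a log2 value averaging 2 or more, and no overlap between genotypes in the treatment that made the difference (6 per ABA or mock level class, 3 per both levels class). It further took up to 2 called members per direction of each list. Other list members were named after their values were seen. Names, coordinates and promoters are from RefSeq TAIR10.1. The windows of UGT89B1 and RAB18 overlap a neighbouring gene, so the next gene of their class is printed. Exact zeros can be failed estimates. In 136 tested genes (0.637%) a library at 0 stood beside one of at least 10 TPM in the same group, and 3 of these were called. Same-numbered libraries did not deviate together (18 pairs, r of -0.215 to 0.103), so they were not paired. Alternatives were other scalings, pseudocounts, filters, a length correction, library weights, left-out libraries and other class rules.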

Additional observations from a re-analysis of the deposited data

Results flagged for a closer look

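Among the 30 genes named for the largest interactions of their class among those that the rule admits, 6 had called ABA responses in opposite directions in bon123 and WT. All 30 were taken from called interactions, so a call in these 6 was given by that choice. The interactions, bon123 response minus WT response on the log2 scale (limma, n = 3 libraries per group), were 4.70 for CEP2, -4.51 for GA3OX1, 3.83 for ATSPS4F, 3.46 for TBL45, -3.56 for ATSBT5.2 and 5.62 for ATSDI1. CEP2, ATSPS4F, TBL45 and ATSDI1 rose in bon123 and fell in WT, and GA3OX1 and ATSBT5.2 fell in bon123 and rose in WT. These 6 are drawn from 378 and 382 called genes with opposite called responses. No group holds 4 or more libraries, so single outlying samples were not looked for.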

How the results depend on the processing

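The 9157 called interactions became 7809 to 11115 when each library was left out in turn, the most without bon123 ABA replicate 3, and 12482 with library weights that ran from 0.117 for that library to 4.6 for bon123 ABA replicate 2. With the replicate number as a replicate block, 4178 higher and 4171 lower interactions were called, 8284 of them shared with the unblocked fit, and 3 lower compatible solute genes in place of 5. Other counts of 5 or more list members stayed within 1.5 times under the block. Scaling mattered most. Without it 2004 interactions were higher and 8840 lower, the bon123 response rose in 3192 and fell in 11696 genes, and the classes held 759 ABA level higher, 3554 ABA level lower, 396 mock level higher, 2079 mock level lower, 849 both levels higher and 3207 both levels lower genes. With upper-quartile factors ABA level higher genes numbered 1266. A class ratio of 3 gave 1251 ABA level higher, 924 ABA level lower, 446 mock level higher and 2908 both levels higher genes. Sorting by called difference gave 1069, 772, 434 and 537 in the order ABA level higher and lower, mock level higher and lower, and 3075 and 3219 in both levels higher and lower. The signs of SNRK2.4 (-0.17), SIP1;1 (-0.20), ABI1 (-0.16) and NCED3 (-0.11) turned without scaling, and that of BON2 with library weights (0.039) and without bon123 ABA replicate 3 (0.10, with a range of -0.40 to 0.10 over the left-out libraries). The cause was not tested. BON1 passed with library weights (-0.57) and without bon123 ABA replicate 3 (-0.64), and COR414-TM1, LTP4 and SPCH, among others, missed the threshold with a pseudocount of 0.1. Of 172 genes followed across the settings, not all of them named above, at most 9 lost their call when 1 library was left out, as without bon123 mock replicate 1. Without scaling 14 lost their call with the sign unchanged and 4 changed sign. With a pseudocount of 0.1, 11 lost their call. List medians close to that of all genes (SnRK2, salicylic acid, ethylene, calcium, stomata, jasmonate, cell cycle, DREB and ABA receptors) changed sign in at least 1 setting, as did those of ABA transcription factors, ABA synthesis, solutes, clock, camalexin and pattern-triggered immunity without scaling. Unknown depth limits what low values can show.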

Other observations

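The metallothionein gene MT1A was listed at 0, 0 and 42791 TPM in the bon123 ABA libraries and at 15578, 0 and 0 TPM in bon123 mock, and at 0 in all 6 WT libraries, so no interaction is given for it. LHB1B2, a light-harvesting gene with near-identical copies, had 296, 1.39 and 165 scaled TPM in bon123 ABA, 351, 0.509 and 546 in bon123 mock, 10860, 15.1 and 10990 in WT ABA, and 8355, 9543 and 9458 in WT mock, with low values in replicate 2 of 3 groups.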
